A study of Mus musculus with 8 samples.

Results

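Chromatin of the mouse hippocampus was read at the loci of 4 genes that mark inhibitory neurons, Gad1, Gad2, Dlx1 and Dlx2, which all lie on chromosome 2. Members were chosen by position on build mm9, in 3 windows: Gad1 (chromosome 2, 70380000 to 70450000, 70 kb), Gad2 (chromosome 2, 22465000 to 22560000, 95 kb) and Dlx1 with Dlx2 (chromosome 2, 71350000 to 71395000, 45 kb). Of the 11304 regions in the deposited count table, 5 overlapped the windows: 1 at Gad1, 0 at Gad2 and 4 at Dlx1/Dlx2. The libraries were made by Sono-seq, an assay without antibody that sequences sonicated, crosslinked chromatin; easily sheared, open chromatin gives more reads. They came from the hippocampus of 8 male C57BL/6J mice, aged 2 months, all handled for 3 days beforehand. The 4 conditioned mice were taken 30 min after contextual fear conditioning, a session in which a chamber is paired with 1 foot shock (2 s, 1.5 mA). The 4 control mice were handled but not conditioned, with dissection matched for the hour. Samples are named here as control or conditioned replicates 1 to 4, after the titles. The labels describe separate animals, so the spread between libraries includes that between animals and that of library preparation.

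Inhibitory neurons make GABA, the main inhibitory transmitter of the adult brain, from glutamate. Gad1 and Gad2 encode the pair of glutamate decarboxylases that carry out this step; the Gad1 enzyme is spread through the cell, and the Gad2 enzyme is concentrated at axon terminals. Dlx1 and Dlx2 encode homeodomain transcription factors of developing forebrain interneurons. They are convergently transcribed neighbours with regulatory DNA between them, and they promote expression of the Gad genes. In the hippocampus, interneurons are a minority among excitatory neurons and glia. In such bulk tissue, fewer cells with an open locus and less opening per cell cannot be told apart.

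The DNA just upstream of the 4 genes is shown because these genes are the subject of the peaks that follow. Each line gives the 250 bases before the RefSeq start (chromosome 2, build GRCm38.p6), read 5′ to 3′ on the gene's strand, which is plus for Gad1, Gad2 and Dlx1 and minus for Dlx2; capitals mark CpG dinucleotides. All 4 genes were found in that table.
Gad1: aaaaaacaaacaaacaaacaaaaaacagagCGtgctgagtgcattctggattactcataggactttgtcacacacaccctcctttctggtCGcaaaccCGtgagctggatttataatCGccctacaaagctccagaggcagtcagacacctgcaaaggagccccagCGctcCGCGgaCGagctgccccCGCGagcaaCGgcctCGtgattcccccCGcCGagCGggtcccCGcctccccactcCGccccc
Gad2: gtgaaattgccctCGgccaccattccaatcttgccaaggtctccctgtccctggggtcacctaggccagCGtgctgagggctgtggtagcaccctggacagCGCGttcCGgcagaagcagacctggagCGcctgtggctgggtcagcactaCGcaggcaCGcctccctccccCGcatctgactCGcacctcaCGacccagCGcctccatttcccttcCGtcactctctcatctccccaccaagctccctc
Dlx1: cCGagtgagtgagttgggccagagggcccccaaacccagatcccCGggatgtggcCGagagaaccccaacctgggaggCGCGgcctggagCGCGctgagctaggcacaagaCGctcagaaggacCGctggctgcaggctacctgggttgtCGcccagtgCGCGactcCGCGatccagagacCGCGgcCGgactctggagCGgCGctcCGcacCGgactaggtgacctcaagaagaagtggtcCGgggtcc
Dlx2: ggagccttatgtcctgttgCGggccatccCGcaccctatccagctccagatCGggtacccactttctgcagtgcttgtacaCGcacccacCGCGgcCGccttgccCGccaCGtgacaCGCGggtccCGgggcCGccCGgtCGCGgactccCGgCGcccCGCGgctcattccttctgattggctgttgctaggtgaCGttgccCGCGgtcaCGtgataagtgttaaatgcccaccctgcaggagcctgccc
The 4 stretches held 17, 13, 22 and 24 CpG dinucleotides in the order shown, against a median of 6 over 32851 promoters of the same length, and their GC content was 58.0%, 64.0%, 68.0% and 66.4% (median 52.4%). At least 24 CpGs, the Dlx2 count, were present in 12.0% of all promoters, and at least 13, the Gad2 count, in 31.5%. The homeodomain core TAATT, searched on both strands, was in none of the 4 and in 25.0% of all promoters. GGGCGG (both strands) was in the Gad1 and Dlx2 stretches and in 32.7% of all promoters, the E-box CACGTG (its own reverse complement) in that of Dlx2 and in 6.02%, and TATAA (both strands) in that of Gad1 and in 22.8%. These letters belong to another build than the peaks and were not placed against them, so whether a peak lies on a promoter was not analysed here. In the same RefSeq table Myo3a is the upstream neighbour of Gad2, Metap1d is that of Dlx1, and antisense transcripts (Gad1os, Dlx1as) overlap Gad1 and Dlx1. A peak in a window can therefore belong to such a neighbour.

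The libraries differed in how well they resolved regions. Total counts ran from 36786183 to 83233550, but the 50 regions with the most counts held most of them, which left 2013469 to 14605841 counts for all others. A z score, the authors' own value for each peak, reached 30 in 24.3% and 25.5% of all regions in control replicates 1 and 3, and in 58.6% to 97.7% in the other libraries. A region entered the deposited list with such a peak in at least 4 libraries, which are called its carriers. Beside results that moved by over 1.5 times or changed sign without control replicates 1 and 3, the value with control replicates 2 and 4 as the only controls is given.

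The Dlx1/Dlx2 window held the most peaks with z of at least 30 of the 3 windows in 6 of 8 libraries, all but control replicates 1 and 3. It held 4 deposited regions, Dlx regions 1 to 4 in the order of their positions: 71366821 to 71368235, 71379276 to 71379721, 71382135 to 71382926 and 71383235 to 71385121. They had 6, 6, 5 and 6 carriers and deposited mean z scores of 55.1, 52.4, 46.3 and 64.3, against a median of 58.9 over all regions. Peaks with z of at least 30 numbered 0, 6, 0 and 4 across control replicates 1 to 4 and 4, 3, 9 and 5 across conditioned replicates 1 to 4. The Gad1 window had 2, 1, 0 and 0 in control and 2, 1, 2 and 4 in conditioned replicates, and the Gad2 window 2, 2, 1 and 1 in control and 2, 0, 3 and 2 in conditioned replicates. Scaled to 100 kb, the Dlx1/Dlx2 number was at least 6.67 in the 6 libraries that had any, against 1.15 to 2.77 along the whole of chromosome 2 in those libraries. Both libraries with 0 at Dlx1/Dlx2 were the ones in which few regions of the genome reached that score.

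**Figure D1:**
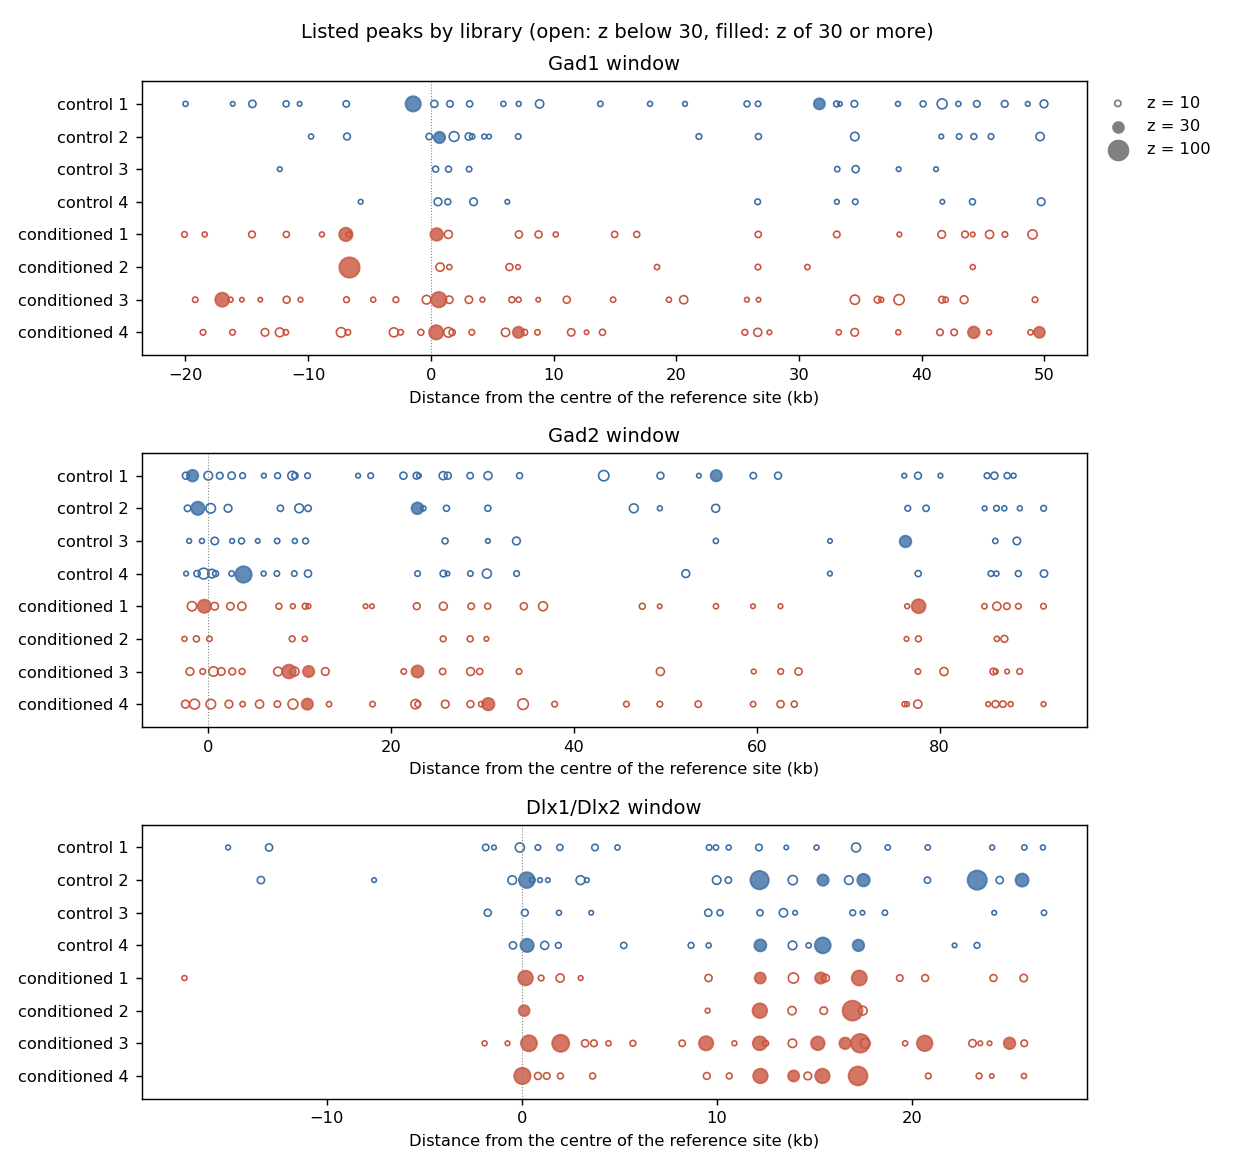
Listed peaks of each library in the 3 windows. The x axis is the distance in kb from the centre of a reference site (in each window, the merged site with peaks in all 8 libraries and the highest median z), rows are libraries, symbol area is proportional to z, and filled symbols have z of at least 30. Filled symbols line up in columns at the deposited regions of the Dlx1/Dlx2 window and, in 4 libraries, at the reference site of the Gad1 window. Elsewhere, filled symbols at 7 Dlx1/Dlx2 sites and 8 Gad1 sites come from 1 library each. Those in the Gad2 window are scattered.

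The 4 Dlx regions lay close together. Gaps to the nearest listed region were 11041, 2414, 309 and 309 bp for Dlx regions 1 to 4, where the median over all regions was 48480.5 bp. Dlx regions 3 and 4 are neighbours across a gap at the 1.45th percentile of all gaps. The Gad1 region was 52506 bp from its neighbour, near that median.

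The regions also differed in shape. Dlx region 4 was wide, at 1886 bp (92.3rd percentile of all spans), and Dlx region 1 spanned 1414 bp. Dlx region 2 spanned only 445 bp (4.48th percentile), and the highest peak in it was 1 step of 50 bp in all 8 libraries. In Dlx region 1 the highest peak spanned 50 to 800 bp. All 8 libraries had a listed peak in Dlx regions 1, 2 and 4, while control replicate 3 had none in Dlx region 3.

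The Gad1 window held 1 region, 70400171 to 70401035, of 864 bp with 4 carriers, the fewest the list allows; 24.4% of all regions have 4. Its highest z was 12.7, 33.1, 9.41 and 15.3 across control replicates 1 to 4 and 40.8, 17.7, 60.9 and 52.8 across conditioned replicates 1 to 4. A listed peak was thus present at the Gad1 region in every library, and it reached 30 in control replicate 2 and in conditioned replicates 1, 3 and 4. The values of the groups overlapped. The same libraries were the strong ones genome-wide, apart from control replicate 4, where 74.2% of regions reached a z of 30 and the Gad1 region stood at the 5.49th percentile.

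The Gad2 window held no deposited region, but it was not empty. Between 12 and 34 peaks were listed there per library, and 0 to 3 of them had z of at least 30. When the peaks of the 8 libraries were merged where they touched, 5 of 62 sites had a peak in all 8 libraries (8.06%), compared with 1 of 85 at Gad1 (1.18%), 3 of 58 at Dlx1/Dlx2 (5.17%) and 3.45% of 180211 sites on chromosome 2. Per 100 kb that is 5.26 at Gad2, 1.43 at Gad1, 6.67 at Dlx1/Dlx2 and 3.48 on chromosome 2. Wider sites gather more libraries by construction, and no test was run on these shares.

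The 5 Gad2 sites were often broad, and each reached a z of 30 in at most 3 libraries. Their highest median z was 27.1, against 25.4 at the Gad1 site with a peak in all 8 libraries. The site with the highest median z lay at 22465489 to 22471398, a chain of peaks over 5909 bp; its highest z was 34.6, 45.3, 14.1 and 29.4 across control replicates 1 to 4 and 45.0, 9.37, 22.6 and 24.8 across conditioned replicates 1 to 4. It reached 30 in 3 libraries, but at 3 places that did not overlap (starting at 22466743 in control replicate 1, 22467326 in control replicate 2 and 22467559 in conditioned replicate 1), so at each place only 1 library reached that score. At 22477285 to 22479935 (2650 bp) the highest z was 8.55 to 19.97 in controls and 8.77, 8.64, 49.2 and 32.8 across conditioned replicates 1 to 4. The other 3, at 22494085 to 22494876, 22497871 to 22499248 and 22554285 to 22555089, had median z scores of 10.6, 9.57 and 9.90 and reached 30 in 0, 1 and 0 libraries. At each Gad2 site the values of the groups overlapped.

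**Figure D2:**
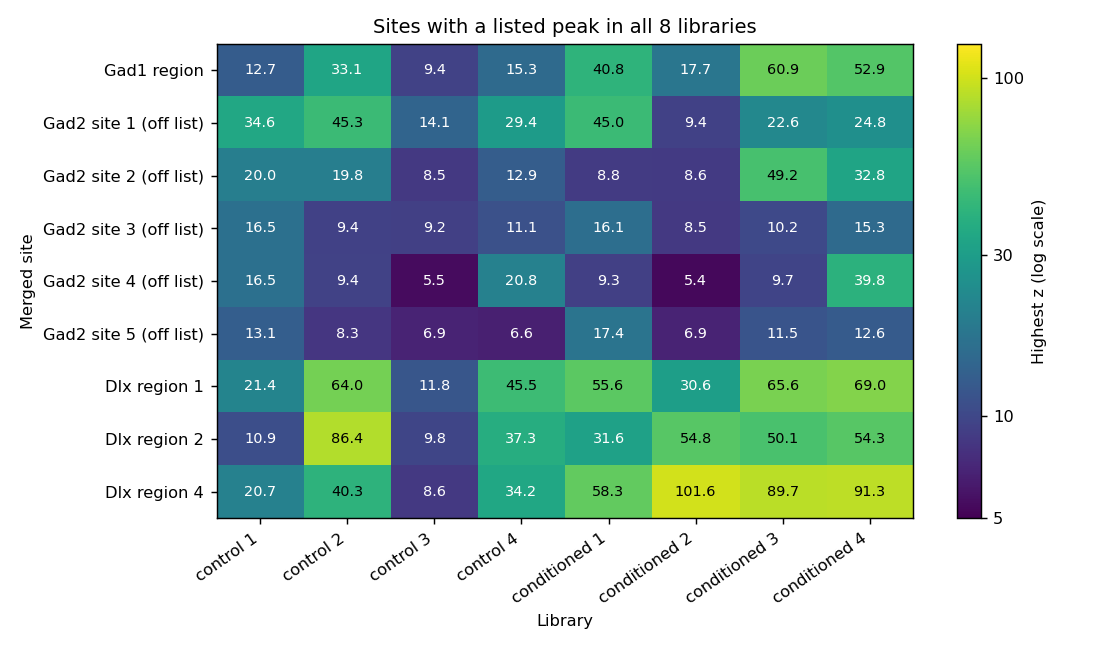
Highest z in each of the 9 merged sites with a listed peak in all 8 libraries (rows) by library (columns), with colour on a log scale. The 3 Dlx sites reach 30 in 6 libraries each, the Gad1 site in 4, and the Gad2 sites in 0 to 3.

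Off the list, a z of at least 30 was mostly reached in 1 library per site. Weaker peaks of other libraries lay at some of these sites. In the Gad1 window 8 sites outside the region had z of at least 30, and each had it in 1 library only. The strongest was a step of 50 bp at 70393439 with z of 105.6 in conditioned replicate 2. By deposited starts and ends, no peak of another library overlapped it. Counting 50 bp for each step, a peak of conditioned replicate 1 with z of 7.27 did. Chosen after its values were seen, a step at 70393209 had z of 46.1 in conditioned replicate 1 and at most 10.4 in 2 others. On the count of 50 bp for each step, touching peaks ran on from it. They had z of 11.8 in control replicate 2 and 8.10 in conditioned replicate 4. Steps start at different bases in each library, so near neighbours need not merge. The next were at 70398693 (59.8, control replicate 1) and 70383135 (50.4, conditioned replicate 3), with no overlapping peak of another library at either place. In the Dlx1/Dlx2 window there were 7, each with z of at least 30 in 1 library only. They were led by 71390626 (94.8, control replicate 2), 71369285 (74.8, conditioned replicate 3) and 71387935 (62.6, conditioned replicate 3). Each of these 6 leading sites was a single step of 50 bp. Counting 50 bp for each step, weaker peaks of other libraries overlapped each of the Dlx sites named. The highest such z was 8.65 at 71390626 (control replicate 4), 17.05 at 71369285 and 11.8 at 71387935 (both conditioned replicate 1). Other Dlx sites, chosen after their values were seen, lay in runs of touching peaks on that count. At 71381221 (31.8, conditioned replicate 4), the run had z of 17.6 to 26.7 in control replicates 2 and 4 and conditioned replicates 1 to 3. At 71376685 (52.5, conditioned replicate 3), it had z of 5.90 to 13.2 in every other library but control replicate 2.

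The Gad2 window had 11 such sites, of which 2 were in 2 libraries. At 22491326 to 22491385, z was 35.3 in control replicate 2 and 38.0 in conditioned replicate 3. By deposited starts and ends, 4 libraries had no listed peak overlapping it. Counting 50 bp for each step, conditioned replicate 4, among those 4, had a peak there with z of 8.665. At 22478871 to 22479935, z was 32.7 and 32.8 in conditioned replicates 3 and 4 and 6.76 to 19.8 in the other 6 libraries. The site at 22472265 had z of 69.1 in control replicate 4, at most 8.80 in 3 others and no peak in the remaining 4.

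Read counts per kb were low for the list in 4 of the 5 regions. Raw counts in the Gad1 region were 77, 244, 257 and 74 across control replicates 1 to 4 and 258, 64, 534 and 519 across conditioned replicates 1 to 4. In Dlx region 1 they were 177, 736, 57 and 496 in controls and 604, 208, 1134 and 993 in conditioned libraries. In Dlx region 4 they were 179, 627, 77 and 307 in controls and 729, 881, 1375 and 1429 in conditioned libraries. Across Dlx regions 2 and 3 counts ran from 35 to 721.

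For comparison, counts were scaled to library size (CPM, counts in parts per 1000000) with TMM factors, which set a region against the bulk of regions. Per kb of region, the mean over 8 libraries was 8.52 ± 4.99 CPM in Dlx region 2, 4.89 ± 1.56 in Dlx region 1, 4.88 ± 2.64 in Dlx region 4, 4.84 ± 4.64 in the Gad1 region and 3.96 ± 2.32 in Dlx region 3 (SD, n = 8). The median over all regions was 8.04 CPM per kb. Dlx region 2 stood at the 54.2nd percentile of all regions on this scale; the other 4 members stood between the percentiles 13.5 and 19.9. All 5 ranges overlapped, but the regions were read in the same 8 libraries, so overlap of ranges does not settle whether neighbours in this order differed. Within libraries, Dlx region 2 over Dlx region 1 ran from 0.836 to 4.46, and this was not tested.

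The main comparison asked whether the regions differed 30 min after conditioning. No member passed the test: 0 of 5 regions had an adjusted p below 0.05 in edgeR (quasi-likelihood test, Benjamini-Hochberg over all regions), as for 0% of all 11304. At an unadjusted p below 0.05 there was 1 of 5 by edgeR, Dlx region 4, where the background was 7.79%. The DESeq2 Wald test called 0 of 5 members at an adjusted p below 0.05 and 40 of the 11138 regions it tested (0.359%); limma voom called 0 of 5 and 0% of all regions. With scaling by region totals alone, edgeR called 0 of 5 members and 6 of all regions (0.0531%). Estimates were above 0 in 2 of 5 regions, against 46.4% of all regions, and the median over all regions was -0.05.

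Dlx region 4, the last of the Dlx1/Dlx2 window, had the highest percentile of fold change among the members. Its CPM was 8.16, 6.79, 4.11 and 5.17 across control replicates 1 to 4 and 8.996, 20.01, 11.9 and 8.53 across conditioned replicates 1 to 4. Every conditioned library was above every control library, though conditioned replicate 4 exceeded control replicate 1 by little. Conditioned libraries averaged 12.4 ± 5.31 CPM and controls 6.06 ± 1.78 CPM (n = 4 per group, SD), a log2 fold change of 1.03 (SE 0.43, 95% interval 0.12 to 1.94; edgeR unadjusted p = 0.0297, adjusted p = 0.613). It stood at the 97.5th percentile of fold changes of all regions, and groups did not overlap in 2.4% of all regions, with the conditioned group higher in 1.5%.

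The z scores of Dlx region 4 separated the groups too, at 20.7, 40.3, 8.57 and 34.2 across control replicates 1 to 4 and 58.3, 101.6, 89.7 and 91.3 across conditioned replicates 1 to 4. They come from the same reads and are no independent support. Groups did not overlap in z in 6.26% of all regions. As a percentile of the highest z of all regions within each library, Dlx region 4 was at 49.2, 30.0, 7.71 and 33.6 in control and at 62.5, 96.4, 77.7 and 56.8 across conditioned replicates 1 to 4, again without overlap, where the background was 3.55%. As a percentile of counts per kb within each library, the groups touched: conditioned replicate 4 was at 24.9 and control replicate 1 at 25.2. None of the 5 members separated the groups on that scale, against 2.67% of all regions.

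The difference at Dlx region 4 leaned on single libraries. Without conditioned replicate 2, its highest library, the log2 fold change was 0.69 (edgeR unadjusted p = 0.135). The unadjusted p was also above 0.05 without control replicate 3 (0.0742), control replicate 4 (0.0672) or conditioned replicate 3 (0.0508), and was below it in the other 4 fits with 1 library left out. With control replicates 2 and 4 as the only controls it was 0.044 (log2 fold change 1.03). The direction was the same under every alternative run for that region, from 0.69 to 1.78. The 1.78 came from scaling by region totals alone, which moved the median of all regions to 0.75; relative to that median the difference was 1.03, against 1.08 with TMM factors.

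Dlx region 1 had almost the same mean in both groups. Its CPM was 8.07, 7.97, 3.04 and 8.35 in control and 7.45, 4.72, 9.81 and 5.93 across conditioned replicates 1 to 4. Control replicate 3 was the lowest of all 8, and the groups overlapped. The log2 fold change was 0.02 (SE 0.46, 95% interval -0.95 to 1.00; edgeR adjusted p = 0.997), so a difference of almost 1 on the log2 scale in either direction lies within the interval. Its sign depended on the processing, and with control replicates 2 and 4 as the only controls it was -0.24.

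In Dlx region 2, the narrow one, CPM was 3.24, 7.81, 1.87 and 3.57 in control and 1.96, 6.63, 2.97 and 2.30 across conditioned replicates 1 to 4. Replicate 2 was the highest of both groups, and the groups overlapped. The log2 fold change was -0.26 (SE 0.57, 95% interval -1.48 to 0.96; edgeR adjusted p = 0.958), and it was 0.25 without control replicate 2 and -0.73 with control replicates 2 and 4 as the only controls.

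Dlx region 3 had 2.051, 2.04, 1.87 and 7.32 CPM in control and 2.80, 1.91, 3.86 and 3.21 CPM across conditioned replicates 1 to 4. Control replicate 4 alone raised the control mean, which was 3.32 ± 2.67 against 2.94 ± 0.816 CPM (n = 4 per group, SD). The log2 fold change was -0.18 (SE 0.56, 95% interval -1.38 to 1.02; edgeR adjusted p = 0.966), and it was 0.54 without control replicate 4 and -0.68 with control replicates 2 and 4 as the only controls.

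At the Gad1 region, CPM was 3.51, 2.64, 13.7 and 1.25 in control and 3.18, 1.45, 4.62 and 3.10 across conditioned replicates 1 to 4. Control replicate 3 was far above the other 7, which overlapped. The log2 fold change of -0.76 (SE 0.67, 95% interval -2.18 to 0.66; edgeR adjusted p = 0.831) rested on that library and was 0.30 without it (0.65 with control replicates 2 and 4 as the only controls). In control replicate 3 the region was at percentile 84.9 of counts per kb but at percentile 10.1 of z, with 257 reads and a highest z of 9.41, while control replicate 2 had 244 reads there and a z of 33.1. In the other 7 libraries the region was between the percentiles 6.63 and 34.2 of counts per kb.

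**Figure D3:**
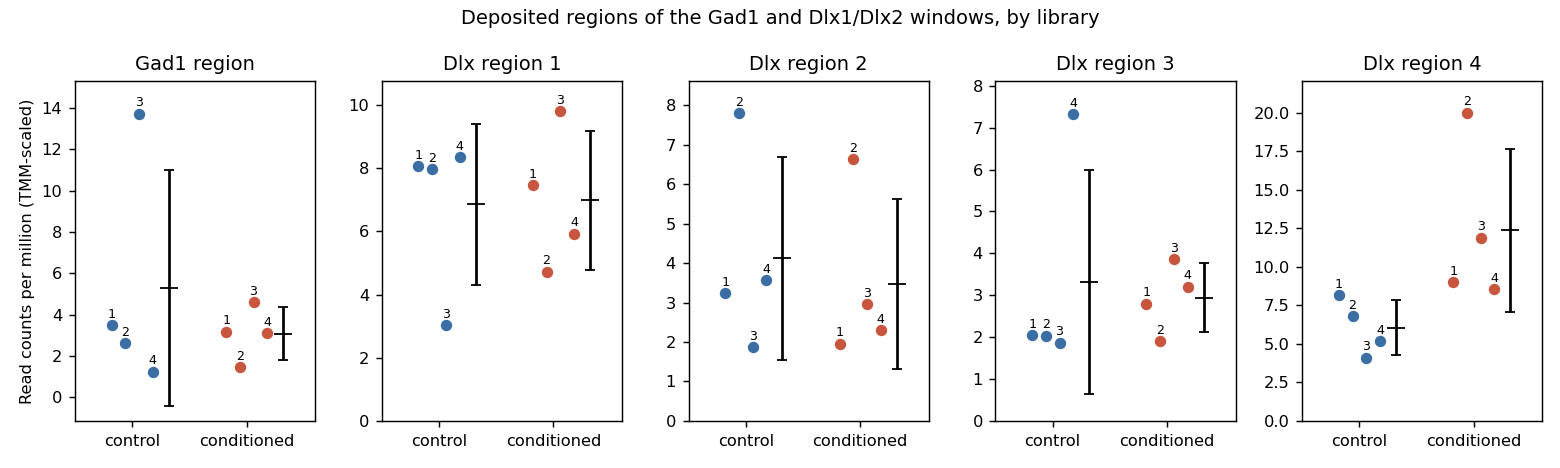
TMM-scaled CPM in the 5 regions, 1 panel per region with its own y axis; each point is a library, labelled with its replicate number, and black bars give the mean ± SD of the 4 libraries of a group. The groups separate only in Dlx region 4, and control replicate 3 stands alone in the Gad1 region at 13.7 CPM.

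**Figure D4:**
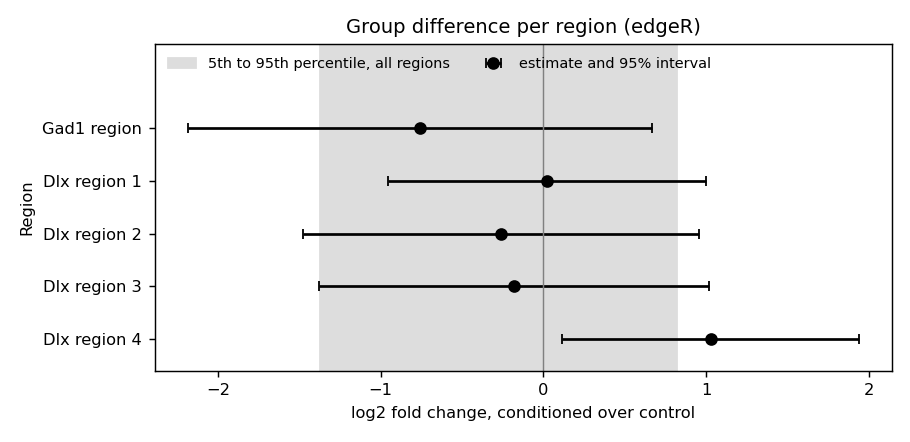
log2 fold change of conditioned over control libraries for the 5 regions, with 95% intervals from edgeR's quasi-likelihood fit; the grey band runs from the 5th to the 95th percentile of all regions (-1.37 to 0.82). Dlx region 4, at 1.03, lies beyond the band, and the other 4 lie inside it.

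Within the Dlx1/Dlx2 window the regions did not keep a fixed ratio. Counts per kb in Dlx region 4 over Dlx region 1 were 0.758, 0.639, 1.01 and 0.464 in control and 0.905, 3.18, 0.909 and 1.08 across conditioned replicates 1 to 4. The ratio needs no scaling between libraries, and the groups overlapped in it through control replicate 3. Dlx region 4 over Dlx region 2 gave 0.595, 0.205, 0.519 and 0.342 in control and 1.08, 0.712, 0.946 and 0.876 across conditioned replicates 1 to 4, where the groups did not overlap. It was the only one of the 6 ratios between Dlx regions that separated the groups, where 2.33% of 2100 pairs of regions within 18300 bp did so; Dlx region 4 over Dlx region 3, for example, ran from 0.296 to 1.67 in control and from 1.12 to 4.40 in conditioned replicates. The ratios were looked at after the counts were known and were not tested.

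Across the 8 libraries, log2 CPM of the 6 pairs of Dlx regions had Pearson's r between -0.20 (Dlx regions 3 and 4) and 0.52 (Dlx regions 1 and 3). The Gad1 region had r of -0.43 to -0.60 with the Dlx regions. Control replicate 3 was the highest library at the Gad1 region, with log2 CPM of 3.78. It was the lowest in each Dlx region, at 1.62, 0.922, 0.922 and 2.05 in Dlx regions 1 to 4. How far the negative r rests on that library was not tested. The r values describe 8 libraries that differ in depth and share 1 set of scaling factors. Of all other regions, those most like the Gad1 region in log2 CPM were on chromosome 7 at 88907473 to 88908310 (r = 0.96), chromosome 4 at 109329530 to 109330448 (0.96) and chromosome 9 at 32216635 to 32217485 (0.96). Those most like Dlx region 4 were on chromosome 9 at 41931785 to 41932635 (0.98), chromosome 8 at 124175289 to 124176222 (0.97) and chromosome 8 at 63461304 to 63462480 (0.97), each over 8 libraries. The median r of all regions was -0.03 and -0.01. These regions were picked as the highest r among all others. How high such maxima run by chance over 8 libraries was not tested.

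Whole windows were compared as well, by exact permutation of the group labels (70 arrangements, two-sided, 8 tests; the smallest p that 4 against 4 libraries allow is 0.0286). CPM summed over the 4 Dlx regions was 25.7 ± 6.28 with conditioning and 20.4 ± 6.46 in controls (n = 4 per group, SD), a difference of 5.39 (SE 4.51; exact permutation p = 0.343, Benjamini-Hochberg value 0.686). For the single Gad1 region the difference was -2.19 (SE 2.92; exact permutation p = 0.743, Benjamini-Hochberg value 0.882). Neither was larger than the spread between libraries. With control replicates 2 and 4 as the only controls the differences were 1.24 at Dlx1/Dlx2 and 1.15 at Gad1, and with scaling by region totals alone they were 18.2 and 1.30.

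The highest z in the Gad1 window was 59.8, 33.1, 12.95 and 15.3 in control and 46.1, 105.6, 60.9 and 52.8 across conditioned replicates 1 to 4. Its mean was 66.4 ± 26.9 with conditioning and 30.3 ± 21.6 in controls (n = 4 per group, SD), a difference of 36.1 (SE 17.2; exact permutation p = 0.0857, Benjamini-Hochberg value 0.686). In control replicates 1 and 3 and conditioned replicates 1 and 2 that highest peak lay outside the Gad1 region.

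In the Dlx1/Dlx2 window the highest z was 21.4, 94.8, 17.7 and 64.6 in control and 58.3, 101.6, 89.7 and 91.3 across conditioned replicates 1 to 4, a difference of 35.6 (SE 20.7; exact permutation p = 0.2, Benjamini-Hochberg value 0.686). In the Gad2 window it was 34.6, 45.3, 34.7 and 69.1 in control and 49.9, 12.1, 49.2 and 39.8 across conditioned replicates 1 to 4, a difference of -8.18 (SE 12.0; exact permutation p = 0.571, Benjamini-Hochberg value 0.882). The groups overlapped in all 3 windows. With control replicates 2 and 4 as the only controls, the difference was 5.57 at Dlx1/Dlx2 and -19.5 at Gad2.

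The highest z was also ranked within each library, as its percentile among the highest z of all deposited regions. At Gad2 it stood at the percentiles 86.5, 38.2, 81.8 and 82.1 in control and 47.5, 4.71, 30.3 and 10.8 across conditioned replicates 1 to 4. Control replicate 2 lay below conditioned replicate 1, so the groups overlapped. The difference was -48.8 percentile points (exact permutation p = 0.0571, Benjamini-Hochberg value 0.457), against 14.8 at Gad1 (exact permutation p = 0.543) and 7.72 at Dlx1/Dlx2 (exact permutation p = 0.6). A window is wider than a region, so its highest z is drawn from more positions.

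Listed peaks of any z numbered 30, 18, 8 and 11 in the Gad1 window of control replicates 1 to 4 and 23, 9, 32 and 33 in that of conditioned replicates 1 to 4, a difference of 7.50 (SE 7.40; exact permutation p = 0.314, Benjamini-Hochberg value 0.686). The differences were 1.25 at Gad2 (SE 5.85; exact permutation p = 0.886) and -1.50 at Dlx1/Dlx2 (SE 4.14; exact permutation p = 0.771). With control replicates 2 and 4 as the only controls, the Gad2 difference was 2.75. Conditioned replicate 2 had 9, 12 and 7 peaks in the Gad1, Gad2 and Dlx1/Dlx2 windows and the fewest peaks of all libraries genome-wide, 379249. Per 100 kb, the Gad1 window held 11.4 to 47.1 peaks the Gad2 window 12.6 to 35.8 and the Dlx1/Dlx2 window 15.6 to 55.6, where chromosome 2 as a whole held 15.5 to 40.7. The Gad2 window was below chromosome 2 in 7 of 8 libraries, all but control replicate 4.

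**Figure D5:**
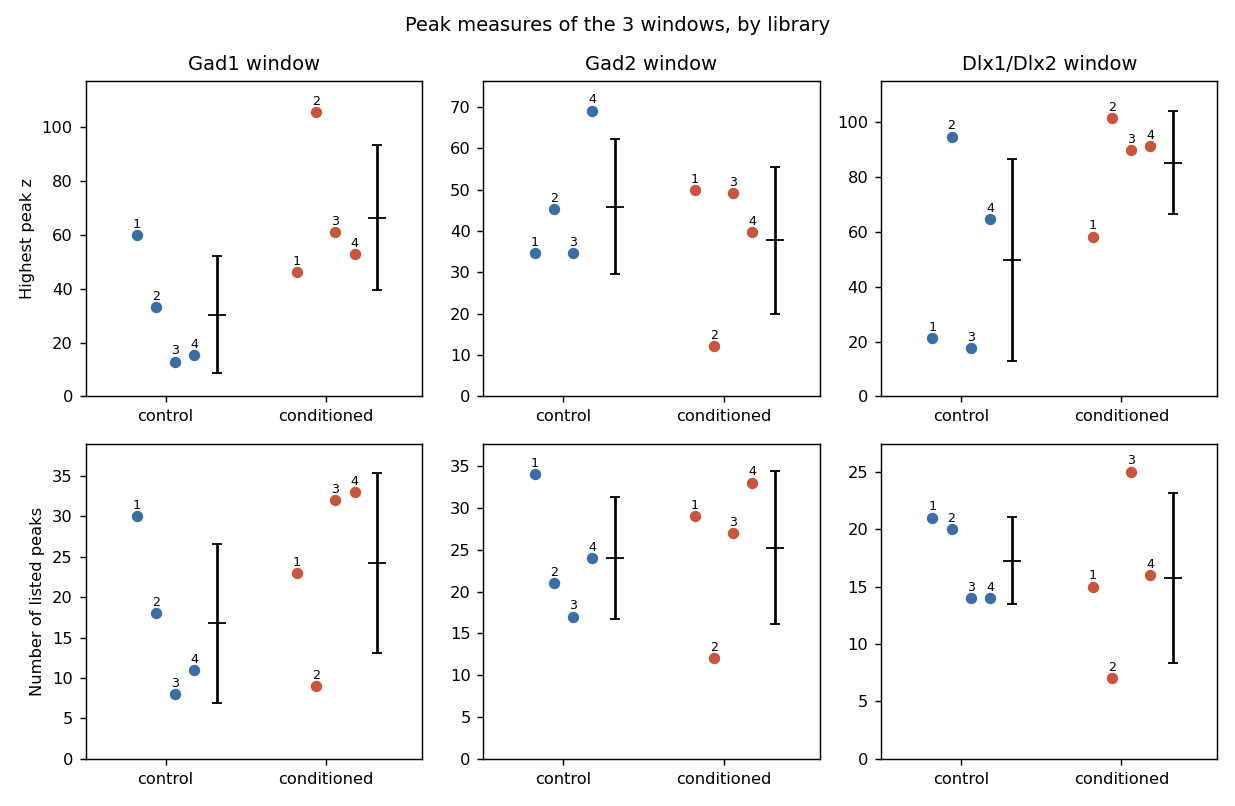
Highest peak z (upper row) and number of listed peaks (lower row) in the 3 windows; points are libraries, labelled with their replicate number, and black bars are the mean ± SD of the 4 libraries of a group. The groups overlap in all 6 panels, and conditioned replicate 2 has the fewest listed peaks of its group in each window.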

How the data were processed

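Sono-seq libraries of the hippocampus of 8 mice (4 conditioned, 4 control) were analysed from 1 table of raw read counts, 1 table of regions and 8 peak lists. The submitters' processing notes name Bowtie2 and build mm9; peak caller and counting tool: not given in the sources used here. The count table was deposited by the authors without normalisation, and 0 sample columns were left unused. The score of each peak is the authors' deposited z, of unstated scaling, with a lowest value of 5; peaks were listed per sample. The deposited number of carriers equalled the libraries with an overlapping peak of z of at least 30 in all 11304 regions. Peaks with equal start and end were read as steps of 50 bp, so 50 bp were added to each end for spans, covered lengths and merging. Overlap of peaks with regions, windows and off-list sites needed 1 bp by deposited starts and ends, without that step, unless stated. Coordinates are printed as deposited.

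Counts were tested with edgeR 4.0.16 in R 4.3.3 (quasi-likelihood fit, TMM, group only, all 11304 regions, common dispersion 0.281, filterByExpr removing 0 regions), with DESeq2 1.42.0 and limma 3.58.1 as alternatives. The SE is the fold change over the square root of F. The fit was also run on simulated counts. The outcome is not given here, so the smallest change that the fit could find is not stated. Window values were tested in Python 3.11.15 by exact permutation. All deposited regions in the windows are named; off-list sites are the 3 per window with most libraries at z of at least 30, and the most alike regions are the 3 with the highest r. The members and lists were chosen with earlier results of these data known. The labels name no molecular identifiers. No mm9 annotation was used, so lists of other interneuron and cell type genes were not analysed here, nor was the hippocampal label checked against markers.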

Additional observations from a re-analysis of the deposited data

Results flagged for a closer look

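Dixon's ratio, the gap between an extreme library and the next divided by the group's range, was computed for 34 groups of 4 member values. It exceeded its 95% critical value in 2; by chance about 1 in 20 would, and the groups share the same 8 libraries. In Dlx region 1, control replicate 3 had 3.04 CPM, while the other controls had 7.97 to 8.35 CPM. In Dlx region 3, control replicate 4 had 7.32 CPM, while the other controls had 1.87 to 2.051 CPM. It also had a z of 64.6 there, against at most 32.8 in the other controls.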

How the results depend on the processing

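No alternative brought a member past an adjusted p of 0.05: the count stayed at 0 of 5 in all 18 other fits, each fit without 1 library included. Over all regions, 40 (0.359%) were called by the DESeq2 Wald test, 6 (0.0531%) with region totals alone and 0 in each of the other 16. The fits with control replicates 2 and 4 as the only controls and the highest z in deposited regions were chosen after seeing the data. The highest z in deposited regions differed by 25.4 at Gad1 (exact permutation p = 0.0571, Benjamini-Hochberg value 0.457). At Dlx1/Dlx2 it differed by 39.2 (exact permutation p = 0.143, Benjamini-Hochberg value 0.571). The other count filters removed 0 and 9 regions and tested little. Of 90 alternative fold changes, 18 changed sign, and 0 of these were at Dlx region 4. At the Gad1 region they were 0.48 (region totals alone), 0.14 (limma voom), 0.65 (control replicates 2 and 4 only) and, without 1 library, -1.11 to 0.30. At Dlx region 1 they were -0.017 (DESeq2 size factors), -0.0026 (without the 50 highest regions), -0.0178 (DESeq2 Wald test), -0.0215 (voom), -0.24 (control replicates 2 and 4 only) and, without 1 library, -0.24 to 0.17. At Dlx region 2 they were 0.17 (totals alone) and, without 1 library, -0.78 to 0.25. At Dlx region 3 they were 0.54 (totals alone), 0.0475 (replicate block), 0.0406 (voom) and, without 1 library, -0.39 to 0.54. Dlx region 4 ran from 0.69 to 1.19 without 1 library.

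The difference in summed CPM at Gad1 turned to 1.30 with totals alone and 1.15 with control replicates 2 and 4 only, and ran from -3.54 to 0.62 without 1 library (Dlx1/Dlx2: 18.2 with totals alone, 1.24 with control replicates 2 and 4 only, 2.24 to 7.32 without 1 library). Without 1 library, the group difference in highest z ranged from 23.0 to 45.9 at Gad1, -12.2 to 0.37 at Gad2 and 25.0 to 50.7 at Dlx1/Dlx2. That in listed peaks ranged from 4.58 to 12.6 at Gad1, -1.33 to 5.67 at Gad2 and -4.58 to 1.42 at Dlx1/Dlx2. With all libraries, at Dlx1/Dlx2 the difference was 2.75 with z of at least 10, 2.75 with z of at least 30 and 37.5 bp as covered length. Per 100000 listed peaks it was 0.57 at Gad1, -0.51 at Gad2 and -0.71 at Dlx1/Dlx2. Exact permutation p was 0.2, 0.257 and 0.0571 in that order (lowest Benjamini-Hochberg value 0.343). The causes were not tested, beyond the library left out. The titles give both groups the replicate numbers 1 to 4 and the same label numbers, 1, 4, 6 and 9. They do not say whether these numbers mark pairs or batches. Deviations from the group means correlated at 0.161, 0.0482, -0.063 and 0.272 between same-numbered libraries. Between differently numbered libraries r ran from -0.341 to 0.284. The numbers were not taken to pair the libraries, though 4 pairs cannot settle this. With the replicate block the count was 0 of 5 and Dlx region 4 had 0.99 (edgeR unadjusted p = 0.0457). Counts per region limit precision most in control replicates 1 and 3, with medians of 142 and 115; control replicate 1 had 66135693 counts in all, of which 3.35% lay outside the 50 highest regions.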
